A study of Rattus norvegicus with 12 samples.

Results

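The genes described here encode the proteins of the cytosolic ribosome, the machine that translates mRNA into protein. They were chosen by symbol alone, as the gene symbols that start with Rps or Rpl and a number, with at most a short ending such as a, x, l or l1, together with Rplp0, Rplp1, Rplp2 and Rpsa. This took 86 of the 28546 symbols, 33 of the small subunit and 53 of the large subunit. Of these, 11 end in l or l1 and name paralogs, that is, related copies of a core subunit gene, and the other 75 are called core members below.

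The libraries were made from articular chondrocytes of rat knees, released from cartilage with enzymes and cultured before RNA extraction. Post-traumatic osteoarthritis (PTOA) was produced in male Sprague Dawley rats, whose age is not given in the sources used here, by rupture of the anterior cruciate ligament, and the injured knees were injected every 10 days for 8 weeks, starting 4 weeks after the rupture. Knees of the Saline group received saline, those of the Lipo group received empty liposomes, and those of the Lipo-CGS group received liposomes that carried CGS21680, an agonist of the adenosine receptor A2AR. The Uninvolved group came from knees without the injury, and whether these were knees of the injected rats is not stated. Each group has 3 libraries and each library pools the tissue of 3 rats, whereas the study's methods give 5 to 6 rats per experimental group. Libraries of a group may therefore share rats, and the p-values below measure the spread between these libraries.

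A ribosome is built from a small subunit, which reads the mRNA, and a large subunit, which joins the amino acids, and each holds a set of proteins in mostly equal numbers around its ribosomal RNA. The mRNAs for these proteins are among the most abundant of growing cells, and most begin with a C followed by a run of pyrimidines, the terminal oligopyrimidine (TOP) motif, through which the kinase complex mTORC1 sets how well they are translated. Cartilage cells make large amounts of secreted matrix protein and so depend on this machinery.

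To show what the start of these genes looks like, the 30 bases around the annotated transcription start were taken for 9 core members and 3 paralogs, with 15 bases before the start and 15 from the start onward. They come from the RefSeq promoter table of the rat build GRCr8, which matched 66 of the 86 members. That build is not the Rnor_6.0 build to which the reads were aligned, and no read position was set against it. Capitals mark the pyrimidine run that begins at or next to the start site. The first 6 core members were picked because they have a run at the start, as 38.3% of the matched core members do, and are at chr12:46718376-46718405 (Rplp0, minus strand), chr3:43165907-43165936 (Rpl35, minus strand), chr8:129163605-129163634 (Rpl14, plus strand), chr5:168117946-168117975 (Rpl22, plus strand), chr2:177964592-177964621 (Rps27, minus strand) and chrX:157205835-157205864 (Rpl10, plus strand):
Rplp0: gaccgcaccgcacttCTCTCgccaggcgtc
Rpl35: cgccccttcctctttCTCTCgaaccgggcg
Rpl14: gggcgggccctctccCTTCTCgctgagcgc
Rpl22: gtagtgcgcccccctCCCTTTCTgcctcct
Rps27: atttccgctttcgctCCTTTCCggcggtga
Rpl10: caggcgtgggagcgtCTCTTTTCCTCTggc

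Rps24 (chr16:96502-96531, plus strand), whose run begins 1 base after the annotated start, and Rps3 (chr1:163195762-163195791, minus strand) and Rpl18 (chr1:105325255-105325284, plus strand), which have none there, show the other core members:
Rps24: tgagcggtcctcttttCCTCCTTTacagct
Rps3: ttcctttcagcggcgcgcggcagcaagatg
Rpl18: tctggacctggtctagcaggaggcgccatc

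The paralogs Rps27l (chr8:76443643-76443672, plus strand), Rpl22l1 (chr2:113683181-113683210, plus strand) and Rpl7l1 (chr9:21695703-21695732, plus strand) have no such run at the annotated start, and they are shown because their levels are set against those of their core partners below:
Rps27l: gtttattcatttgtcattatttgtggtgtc
Rpl22l1: gctccgtggatatccggttccgagttgcgc
Rpl7l1: agctgcagatgcattgtgggaagcctttaa

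A run of a C and at least 4 further C or T bases on the transcribed strand began exactly at the annotated start of 23 of 66 matched members (34.8%), against 722 of 27457 promoters in the table (2.63%) and 2.81% of the promoters of genes tested here. All 23 were core members (38.3% of 60), and the run was at the start of 0 of the 6 matched paralogs. Allowing the run to begin within 5 bases of the start raised the share to 63.3% of core members and to 17.0% of all promoters, and 0 of the 6 paralogs had a run there. Of the 63 matched genes for mitochondrial ribosomal proteins, which are not TOP genes, 3.17% had the run at the start. Over the window of 250 bases before to 50 after the start, on both strands, CCGGAAG (an ETS family motif) was in 31.8% of members, 19.0% of tested promoters and 9.22% of all promoters. The SP family motif GGGCGG was in 56.1%, 65.1% and 34.9% in the same order, and the TATA box letters TATAAA were in 12.1%, 6.18% and 14.3%. These matches describe letters in a window.

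Levels are given as FPKM (fragments per kilobase of transcript, scaled to the reads of the library), the unit the authors deposited, which is per length and so allows genes to be set beside each other. Comparisons were fitted with limma on log2(FPKM + 0.5) over the 11373 genes at 1 FPKM or more in at least 3 of 12 libraries, with p-values adjusted by Benjamini-Hochberg over those genes, and a gene is called lower or higher at an adjusted p under 0.05. Fold changes are on this log2 scale, which understates changes of low genes. The files hold no counts. The relative depth estimated from genes at the lowest steps of the FPKM scale ranged from 0.809 to 1.17 of the median library, and 10858 to 11109 genes reached 1 FPKM in each library. The summed FPKM of all genes ranged from 406630 to 544170.

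The filter took in 74 of the 86 members, 66 core members and 8 paralogs. Of the 74, 71 reached 1 FPKM in all 12 libraries, and Rpl36a, Rps28 and Rps19l1 fell below it in 1 to 4 liposome libraries. Rpl35a, Rpl37, Rpl38, Rplp2 and Rps19, core proteins that every ribosome holds, are listed at 0 in each library. Rpl7a (at most 0.02 FPKM), Rps6 (at most 0.33 FPKM), Rps9 (at most 0.24 FPKM) and Rpl32 (0.31 to 1.31 FPKM) are listed near 0. The same holds for the paralogs Rpl3l, known from striated muscle (at most 0.11 FPKM), Rpl30l1 (at most 0.17 FPKM) and Rps18l1 (at most 0.34 FPKM). Ribosomal protein genes have many processed copies in mammalian genomes, and how the deposited values treat reads that match several copies is not given in the sources used here. Absolute levels of members, and of those at or near 0 above all, are therefore uncertain.

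Ribosomal protein mRNAs were lower in chondrocytes of both liposome groups than in those of the Uninvolved and Saline groups. The members summed to 31320, 27284 and 20609 FPKM in the Uninvolved libraries and to 25532, 20969 and 22677 FPKM in the Saline libraries. In the Lipo libraries they summed to 12455, 12524 and 11055 FPKM, and in the Lipo-CGS libraries to 13406, 13293 and 13468 FPKM. Every liposome library was thus below every library without liposomes, the Uninvolved and Saline ranges overlapped, and the Lipo-CGS libraries were a little above the Lipo libraries. As a share of the summed FPKM of all genes, the members held 5.31% ± 0.574 (SD, n = 3) in Uninvolved, 5.03% ± 0.465 in Saline, 2.89% ± 0.184 in Lipo and 3.09% ± 0.0524 in Lipo-CGS. By this share the Lipo and Lipo-CGS libraries overlapped. The Uninvolved library with the lowest sum, replicate 3, is also the library with the highest relative depth (1.17).

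**Figure D1:**
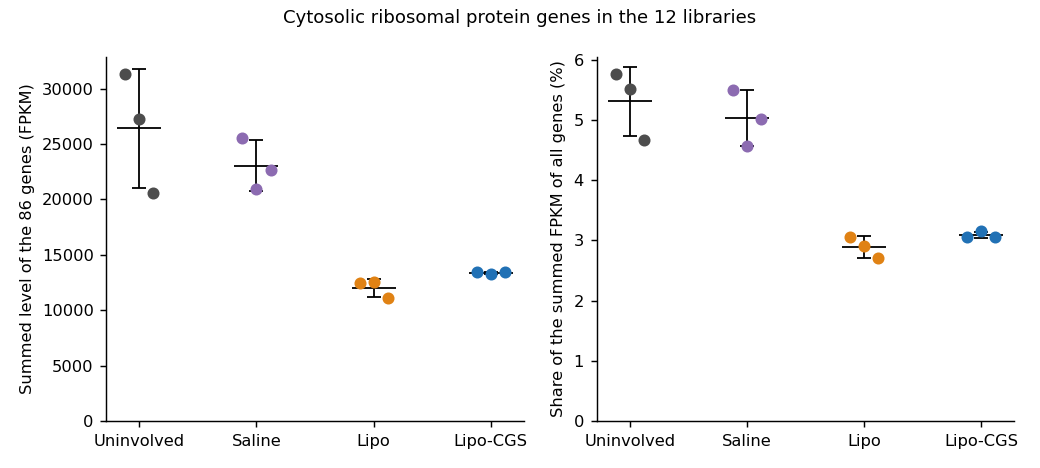
Summed FPKM of the 86 members (left) and their share of the summed FPKM of all genes in percent (right), for each of the 12 libraries. Points are libraries, horizontal bars the mean of 3 and vertical bars 1 SD. The liposome libraries lie between 11055 and 13468 FPKM, all below the other libraries, which lie between 20609 and 31320 FPKM.

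In Lipo against Uninvolved, 62 of the 74 tested members (83.8%) were lower, where 28.9% of all tested genes were lower. Without Rps19l1, which passed the filter through the libraries without liposomes, the count was 61 of 73. No member was higher, where 26.5% of all genes were. With a fold change of more than 1.5 also required, 57 members were lower, against 16.3% of all genes. The median member stood at 46.6% of its Uninvolved level (median log2 fold change -1.10, middle range from -1.25 to -0.72), beside a median of -0.01 over all tested genes. The members are much more abundant than most genes. Among the 737 other genes with a mean of at least 100 FPKM, the median log2 fold change was -0.39, with 418 lower and 105 higher.

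In Lipo-CGS against Uninvolved, 58 of 74 members were lower, against 26.1% of all genes, and 0 were higher, against 23.6% of all genes. The 58 members also passed the fold threshold of 1.5, which 14% of all genes did in that direction. The median log2 fold change was -0.94, or 52.2% of the Uninvolved level. Against Saline, 61 of 74 members were lower in Lipo (24.5% of all genes; 59 members and 12.3% of genes with the fold threshold), with a median of -0.92. In Lipo-CGS against Saline, 57 were lower (21.6% of all genes; 55 members and 10.3% of genes with the fold threshold), with a median of -0.74. No member was higher in either comparison with Saline, where 21.5% and 17.9% of all genes were higher in Lipo and Lipo-CGS. Without Rps19l1, 57 of 73 members were lower in Lipo-CGS against Uninvolved. Against Saline, 60 of 73 were lower in Lipo and 56 of 73 in Lipo-CGS. The comparisons of both liposome groups with a same control group share its libraries and are not independent of each other.

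The separation by library did not rest on the fit. In 51 of the 74 tested members, the 6 liposome libraries were all below the 6 libraries without liposomes, a pattern found in 19.1% of all tested genes. Rps19l1, which passed the filter through the libraries without liposomes, is among the 51. Scaling each library to the same summed FPKM moved the median log2 fold change of all genes to 0.21 in Lipo against Uninvolved, 0.18 in Lipo-CGS against Uninvolved and 0.12 in Lipo against Saline. The members' medians on that scale were -0.86, -0.76 and -0.78, and 54, 55 and 59 of them were lower, beside 17.5%, 17.4% and 17.3% of all genes. In Lipo-CGS against Saline the median was -0.66, with 55 members and 17.1% of all genes lower.

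**Figure D2:**
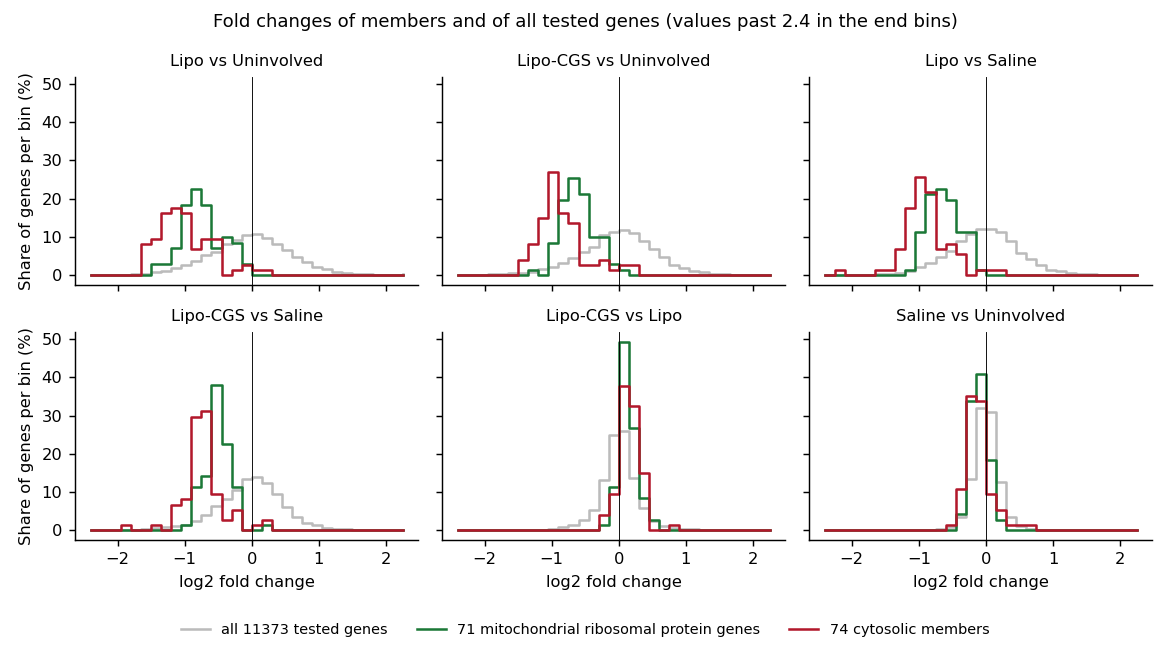
Distribution of log2 fold changes in the 6 comparisons for all 11373 tested genes (grey), 71 genes for mitochondrial ribosomal proteins (green) and the 74 tested members (red). The vertical axis is the share of each set per bin in percent, and the members' medians of -1.10, -0.94, -0.92 and -0.74 in the liposome comparisons lie left of the medians of all genes, which are within 0.01 of 0.

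Between the liposome groups, no member passed the test. In Lipo-CGS against Lipo, 0 of 74 members and 0.167% of all genes changed at an adjusted p under 0.05, and at an unadjusted p under 0.05 the numbers were 5 members (6.76%) and 18.4% of all genes. The fitted values of 64 of the 74 members were above 0 (50.8% of all genes were), with a median log2 fold change of 0.15. The smallest unadjusted p was that of Rps27, a zinc finger protein of the small subunit. It stood at 202, 240 and 209 FPKM in Lipo and at 293, 279 and 308 FPKM in Lipo-CGS, and these groups did not overlap. The log2 fold change was 0.44 ± 0.16 (standard error; limma, adjusted p = 0.181). Rps2, of the mRNA entry channel, had the largest fitted difference, 0.86 ± 0.33 (limma, adjusted p = 0.207), and its groups overlapped. The third by p was Rpl37a, a zinc finger protein of the large subunit, at 189, 220 and 192 FPKM in Lipo and 264, 255 and 267 FPKM in Lipo-CGS (log2 fold change 0.39, limma, adjusted p = 0.230).

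Injury followed by saline gave no called member either. In Saline against Uninvolved, 0 of 74 members and 0% of all genes passed the adjusted threshold, and 2 members (2.7%) and 4.98% of all genes had an unadjusted p under 0.05. The fitted values of 60 of the 74 were below 0 (50.6% of all genes were), with a median of -0.14, or 90.4% of the Uninvolved level. Of the 737 other genes with a mean of at least 100 FPKM, 564 were also below 0, with a median of -0.1. The members' median depended on single libraries. It was -0.35 without Uninvolved replicate 3, -0.03 without Uninvolved replicate 1, -0.25 without Saline replicate 1 and -0.07 without Saline replicate 2. The smallest p values were those of Rpl36 (log2 fold change 0.44, limma, adjusted p = 0.809) and Rpl22l1 (-0.45, adjusted p = 0.809), which point in opposite directions. Without Uninvolved replicate 3, 1 of the 74 members and 0.572% of all genes passed the test.

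The most abundant member was Rplp0, the protein at the base of the stalk that recruits translation factors. Its level was 2718, 2771 and 2477 FPKM in Uninvolved, 2708, 2456 and 2307 FPKM in Saline, 1635, 1679 and 1399 FPKM in Lipo and 1554, 1631 and 1610 FPKM in Lipo-CGS. All 6 liposome libraries were below the other 6. The log2 fold change was -0.76 ± 0.14 in Lipo against Uninvolved (limma, adjusted p = 9.17e-04) and 0.03 in Lipo-CGS against Lipo (adjusted p = 0.932). Rplp0 fell less than the median member, although it is the most abundant.

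Of the other stalk proteins, Rpl12, at the stalk base, fell by 1.37 on the log2 scale in Lipo (limma, adjusted p = 3.21e-04) and fell by 1.30 in Lipo-CGS, each against Uninvolved. Rplp1, an acidic stalk protein, was listed at only 1.17 to 5.77 FPKM, and its log2 fold change of -1.19 in Lipo against Uninvolved (limma, adjusted p = 0.0282) did not pass the test under equal totals (-0.98, adjusted p = 0.0515), without the filter on low values (adjusted p = 0.0614) or without Uninvolved replicate 1 or 2 or Lipo replicate 2 or 3 (adjusted p 0.067 to 0.105). Its partner Rplp2 is listed at 0.

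Rpsa, Rpl18 and Rpl23 were also among the members with the highest levels. Rpsa, which is also known as the laminin receptor, stood at 1350, 1270 and 1047 FPKM in Uninvolved, 1229, 1106 and 1017 FPKM in Saline, 635, 668 and 570 FPKM in Lipo and 713, 722 and 709 FPKM in Lipo-CGS. Its log2 fold changes against Uninvolved were -0.96 in Lipo and -0.77 in Lipo-CGS (limma, adjusted p = 2.16e-04 and 9.61e-04). Rpl18 and Rpl23, of the large subunit, fell by 1.25 and 1.31 in Lipo. The libraries with and without liposomes did not overlap for any of these 3 genes.

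Among the largest falls in Lipo against Uninvolved were those of Rps10l1, Rpl35, Rps24 and Rpl22, with log2 fold changes of -1.64, -1.60, -1.53 and -1.51 (limma, adjusted p from 1.40e-04 to 3.54e-04). Rpl35 lies at the exit of the tunnel through which the new protein leaves the ribosome. Its level was 1435, 1088 and 646 FPKM in Uninvolved, 930, 714 and 824 FPKM in Saline, 368, 325 and 300 FPKM in Lipo and 428, 354 and 386 FPKM in Lipo-CGS. Uninvolved replicate 3 was lowest of its group and still above every liposome library. Rps24, a small subunit protein, had 809, 582 and 367 FPKM in Uninvolved and 173, 208 and 198 FPKM in Lipo.

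Rps25, a small subunit protein that some viral mRNAs need for translation, had a fitted fold change of the same size without passing the test (-1.55 ± 0.69, limma, adjusted p = 0.0729). Its level was 16.1, 10.8 and 6.09 FPKM in Uninvolved, 74.3, 6.39 and 8.54 FPKM in Saline, 3.24, 2.73 and 3.55 FPKM in Lipo and 4.37, 4.76 and 3.56 FPKM in Lipo-CGS. The libraries with and without liposomes do not overlap, and Saline replicate 1 is far above the rest. Without that library the log2 fold change in Lipo against Uninvolved was still -1.55, with an adjusted p of 0.00112 (limma).

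By role, the exit tunnel proteins Rpl17, Rpl19, Rpl22, Rpl23a, Rpl26, Rpl31, Rpl35 and Rpl39 had a median log2 fold change of -1.17 in Lipo against Uninvolved, and 7 of 8 were lower, beside the 28.9% of all genes. The exception was Rpl39, which is described with its paralog below. Rpl17 varied among replicates, with 304, 89.2 and 225 FPKM in Uninvolved and 48.8, 73.3 and 81.5 FPKM in Lipo. Its log2 fold change of -1.46 (limma, adjusted p = 0.0136) became -1.09 with an adjusted p of 0.0636 without Uninvolved replicate 1. Rpl19, Rpl23a, Rpl26 and Rpl31 fell by 0.94, 1.11, 1.20 and 1.14.

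Rpl5 and Rpl11 join with the small ribosomal RNA of the large subunit, and the same complex can bind the p53 regulator Mdm2 when free. Rpl5 stood at 363, 354 and 329 FPKM in Uninvolved, 347, 310 and 336 FPKM in Saline, 230, 244 and 189 FPKM in Lipo and 202, 227 and 226 FPKM in Lipo-CGS. It fell by 0.66 in Lipo and by 0.68 in Lipo-CGS (limma, adjusted p = 5.56e-04 and 7.88e-04), among the smaller changes of the abundant members. Rpl11 fell by 1.04 and 0.94. Rpl10, which joins the large subunit last, fell by 0.95 and 0.85, and Rpl3, which reaches towards the peptidyl transferase centre, by 0.69 and 0.74.

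In the small subunit, Rps3, of the mRNA entry channel, fell by 1.14 in Lipo and 0.97 in Lipo-CGS against Uninvolved. Rps27a, which is made as a fusion with ubiquitin, had 15.9, 13.5 and 11.7 FPKM in Uninvolved and 5.17, 10.4 and 6.37 FPKM in Lipo, and fell by 0.90 (limma, adjusted p = 0.00828). Rps2 had 55.6, 101 and 124 FPKM in Uninvolved, 115, 66.6 and 69.5 FPKM in Saline, 43.7, 51.9 and 71.9 FPKM in Lipo and 119, 126 and 65.6 FPKM in Lipo-CGS, and did not pass the test in Lipo against Uninvolved (-0.69, limma, adjusted p = 0.0986) unless Uninvolved replicate 1 was left out (-1.02, adjusted p = 0.0244). Rps28, near the mRNA exit, was low (0.91 to 4.71 FPKM) and its fold change of -0.71 had an adjusted p of 0.106, which became 0.0144 without Uninvolved replicate 3 and 0.0481 without Lipo replicate 3 (limma).

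Core members were also read by level. Of the core members with a mean of at least 100 FPKM, 37 of 37 were lower in each of the 4 comparisons of a liposome group with Uninvolved or Saline, with medians of -1.20, -1.01, -0.96 and -0.82. Of all other genes at that level, with the members left out, 56.7%, 50.2%, 47.1% and 39.8% were lower. Of the 13 with a mean of 10 to 100 FPKM, 10 were lower in Lipo against Uninvolved, beside 36.4% of the other genes at that level. Of the 16 under 10 FPKM, 10 were, beside 28.9% of all tested genes at any level. The medians of these sets were -1.15 and -0.67, the latter on a scale where the added 0.5 FPKM shrinks low genes most. In the same comparison, large subunit core members were lower in 38 of 40 cases and small subunit core members in 19 of 26. These counts stand beside the same 28.9% of all tested genes, and the medians were -1.14 and -1.07.

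**Figure D3:**
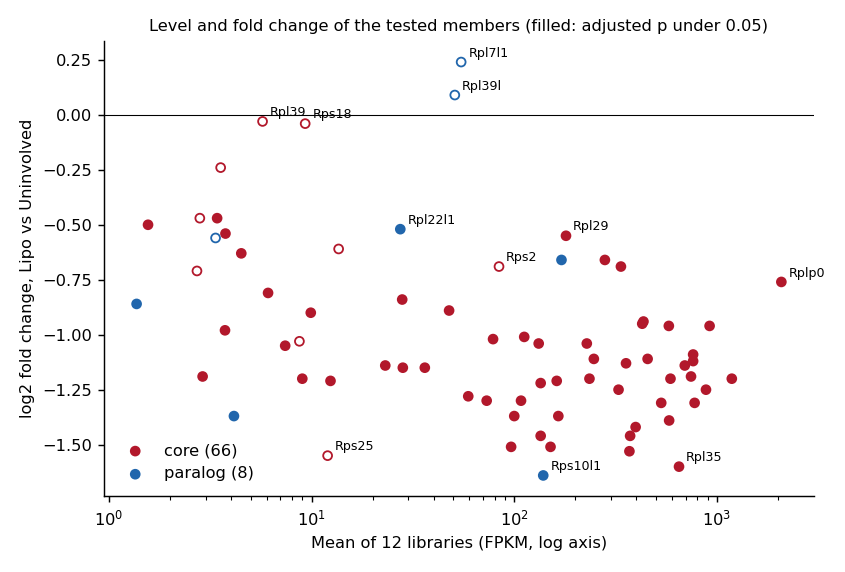
Mean FPKM over the 12 libraries (log axis) against the log2 fold change in Lipo against Uninvolved for 66 core members (red) and 8 paralogs (blue). Filled points have an adjusted p under 0.05. The members at 100 FPKM or more are filled, and the open points are members at lower levels, Rpl7l1 and Rpl39l among them.

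The core members that did not pass the test in Lipo against Uninvolved were Rps2, Rps21, Rps25, Rps18, Rps10, Rpl39, Rpl13, Rps14 and Rps28. Rps18, of the small subunit head, had 7.73, 11 and 6.67 FPKM in Uninvolved, 10.3, 10 and 16.2 FPKM in Saline, 9.38, 4.97 and 10.9 FPKM in Lipo and 8.26, 6.77 and 9.39 FPKM in Lipo-CGS, and its Lipo and Uninvolved libraries overlapped (log2 fold change -0.04 ± 0.28, limma, adjusted p = 0.904), whereas every Saline library was above every Lipo-CGS library (log2 fold change -0.53, adjusted p = 0.145). The sign of the value in Lipo against Uninvolved turned under equal totals (0.18) and without Uninvolved replicate 2 (0.15) or Lipo replicate 2 (0.27). Rpl36, a large subunit protein at 2.31 to 6.15 FPKM, fell by 0.54 (limma, adjusted p = 0.0112), a call that was lost under equal totals (-0.33, adjusted p = 0.0788) and without Uninvolved replicate 2 (adjusted p = 0.0539).

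Of the 7 paralogs at 1 FPKM or more in at least 3 liposome libraries, 4 were lower in Lipo against Uninvolved, beside 28.9% of all genes, and their fitted values ran from -1.64 to 0.24. Rps27l, a copy of Rps27 that p53 induces, had 226, 229 and 172 FPKM in Uninvolved, 236, 177 and 208 FPKM in Saline, 152, 120 and 123 FPKM in Lipo and 124, 157 and 130 FPKM in Lipo-CGS. It fell by 0.66 in Lipo and 0.60 in Lipo-CGS against Uninvolved (limma, adjusted p = 0.00375 and 0.00773), and its liposome libraries were all below the others. Rps27 itself had 707, 629 and 437 FPKM in Uninvolved, 527, 450 and 480 FPKM in Saline, with the Lipo and Lipo-CGS values given above, and fell by 1.42 and 0.98.

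Each paralog was set against its core partner within each library, as the log2 ratio of the FPKM values, and the 6 liposome libraries were compared with the other 6 by a two-sided exact permutation test over 5 pairs with Benjamini-Hochberg adjustment. The smallest p this design allows is 0.00216. With 3 libraries against 3 the smallest is 0.1, so differences between single groups are given as values only. The ratio of Rps27l to Rps27 was 0.319 to 0.448 without liposomes and 0.423 to 0.755 with liposomes, so the ranges overlapped. The mean log2 ratio was higher by 0.45 (-0.91 ± 0.32 against -1.36 ± 0.18, SD, n = 6; exact permutation p = 0.013, adjusted p = 0.0216). Most of this lay in the Lipo group: the mean log2 ratio was -1.48 in Uninvolved, -1.23 in Saline, -0.72 in Lipo and -1.10 in Lipo-CGS, so that Lipo-CGS was only 0.13 above Saline, with overlap, and Saline was already 0.25 above Uninvolved, without overlap.

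Rpl22l1 is the paralog of Rpl22, an RNA-binding protein on the outer face of the large subunit, which in mouse represses Rpl22l1. Rpl22 had 313, 244 and 164 FPKM in Uninvolved, 211, 179 and 175 FPKM in Saline, 84.0, 81.6 and 78.3 FPKM in Lipo and 95.8, 95.4 and 93.4 FPKM in Lipo-CGS. Rpl22l1 had 42.0, 37.7 and 27.9 FPKM in Uninvolved, 22.7, 24.1 and 31.0 FPKM in Saline, 21.9, 27.8 and 24.3 FPKM in Lipo and 18.3, 24.2 and 27.1 FPKM in Lipo-CGS. The core gene separated the 6 liposome libraries from the other 6. The paralog was lower in each liposome library than in each Uninvolved library, and overlapped with Saline.

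The log2 ratio of Rpl22l1 to Rpl22 was higher by 0.91 with liposomes (-1.87 ± 0.29 against -2.77 ± 0.26, SD, n = 6; exact permutation p = 0.00216, adjusted p = 0.00541), with no overlap. The fall of Rpl22l1 itself in Lipo against Uninvolved (-0.52, limma, adjusted p = 0.0304) was not firm. It missed the threshold under equal totals (-0.28, adjusted p = 0.157), without the filter on low values (adjusted p = 0.058) and without Uninvolved replicate 1 (-0.39, adjusted p = 0.123), Uninvolved replicate 2 (adjusted p = 0.0913), Lipo replicate 1 (adjusted p = 0.0944) or Lipo replicate 3 (adjusted p = 0.0728). In Lipo-CGS against Uninvolved it fell by 0.61 (limma, adjusted p = 0.0155). Against Saline the log2 fold changes were -0.06 in Lipo and -0.16 in Lipo-CGS (adjusted p = 0.794 and 0.498).

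Rpl7l1 resembles Rpl7, and its yeast relative works in the assembly of the large subunit. Rpl7l1 had 36.5, 45.6 and 64.1 FPKM in Uninvolved, 55.5, 47.1 and 66.0 FPKM in Saline, 54.4, 61.0 and 53.1 FPKM in Lipo and 57.4, 61.8 and 54.4 FPKM in Lipo-CGS, with overlap between all groups. Its log2 fold change of 0.24 in Lipo against Uninvolved was the highest of the tested members and did not pass the test (limma, adjusted p = 0.272), except without Uninvolved replicate 3 (0.45, adjusted p = 0.0178). It was 0.05 (adjusted p = 0.813) without Uninvolved replicate 1. Rpl7 had 134, 105 and 89.4 FPKM in Uninvolved, 107, 85.0 and 88.8 FPKM in Saline, 54.4, 56.2 and 48.5 FPKM in Lipo and 54.8, 58.2 and 61.4 FPKM in Lipo-CGS, and fell by 1.02 in Lipo. The ratio of Rpl7l1 to Rpl7 was 0.273 to 0.743 without liposomes and 0.887 to 1.10 with them, a difference of 1.00 in the mean log2 ratio (0.04 ± 0.11 against -0.96 ± 0.53, SD, n = 6; exact permutation p = 0.00216, adjusted p = 0.00541).

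Rpl39l and Rpl10l, known in mouse for their roles in male germ cells, gave no such difference. Rpl39l had 56.7, 43.9 and 46.9 FPKM in Uninvolved and 51.2, 70.2 and 39.1 FPKM in Lipo (log2 fold change 0.09, limma, adjusted p = 0.769), a sign that turned to -0.13 without Lipo replicate 2. It was listed above Rpl39 in each library, at 5.71 to 19.6 times its FPKM. The mean log2 ratio differed by 0.31 between libraries with and without liposomes (exact permutation p = 0.307, adjusted p = 0.384). Rpl39 itself, at 3.58 to 7.55 FPKM, had a log2 fold change of -0.03 (limma, adjusted p = 0.905), which became 0.19 under equal totals, 0.12 without Uninvolved replicate 2 and 0.20 without Lipo replicate 2. Rpl10l was listed at 1.69 to 5.96 FPKM beside 298 to 656 FPKM for Rpl10, and the log2 ratio differed by 0.21 (exact permutation p = 0.409, adjusted p = 0.409).

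**Figure D4:**
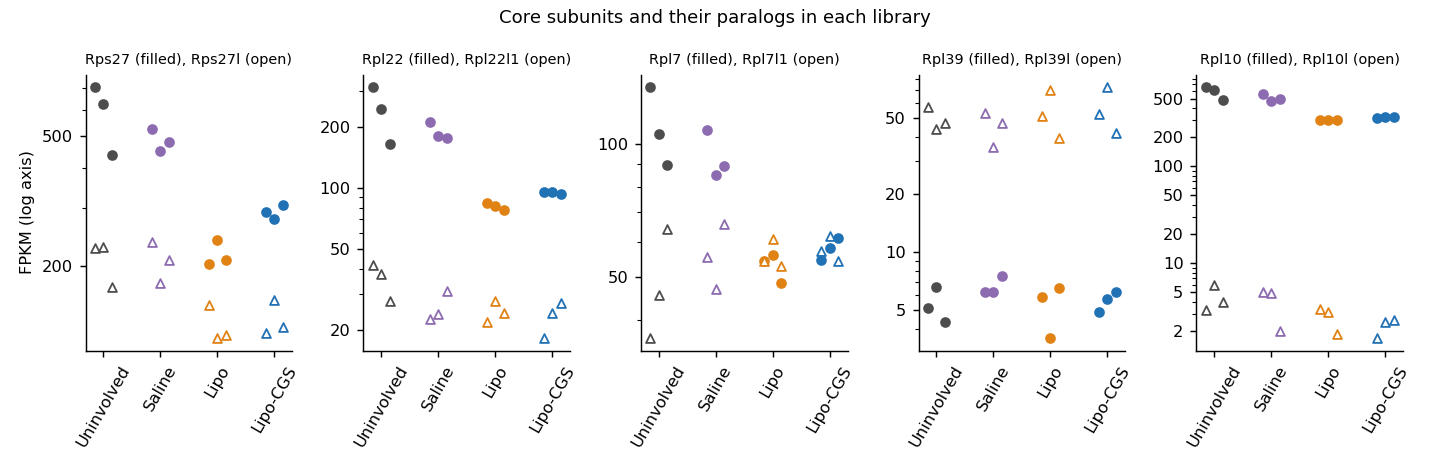
FPKM (log axis) of 5 core members (filled circles) and their paralogs (open triangles) in the 12 libraries, by group. Rpl22 and Rpl7 are lower in every liposome library than in the other libraries, whereas Rpl22l1 and Rpl7l1 overlap between the 6 libraries with and the 6 without liposomes, and Rpl7l1 and Rpl7 reach ratios of 0.887 to 1.10 there.

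Of the remaining paralogs, Rps10l1 had 319, 223 and 135 FPKM in Uninvolved, 210, 163 and 154 FPKM in Saline, 64.7, 76.8 and 62.4 FPKM in Lipo and 91.6, 82.1 and 86.2 FPKM in Lipo-CGS (limma, adjusted p = 3.15e-04 in Lipo against Uninvolved). Its core partner Rps10 was listed far lower, at 3.27 to 17.3 FPKM, with a log2 fold change of -1.03 ± 0.46 that did not pass the test (limma, adjusted p = 0.0782) and did so without Uninvolved replicate 3 (-1.50, adjusted p = 0.0125). Which of the copies the reads of this pair came from was not tested. Rpl5l1, at 1.67 to 7.89 FPKM, fell by 1.37 in Lipo. Rps19l1, at 0.53 to 2.76 FPKM, reached 1 FPKM in 2 of 6 liposome libraries and in the other 6 libraries. It thus passed the filter only through the groups where it was high, and its own test is not read as a result. It remains in the counts and medians over 74 members, and the counts of lower members without it are given above. Its partner Rps19 is listed at 0.

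The members varied together. For the 55 members with a mean of at least 10 FPKM, the median correlation between pairs over the 12 libraries was 0.95. Between pairs of all genes at that level, the members included, it was 0.0491. On deviations from the group means, which leave out the differences between groups, it was 0.708 for the members, against 0.039 for all genes at that level. The points share libraries and their depth, and the values are descriptions. Against the mean of the other members, Rpl10 had a correlation of 0.994, Rpl22l1 0.634, Rpl39l -0.141 and Rpl7l1 -0.483.

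Symbols outside the rule that name further copies or pseudogenes were mostly lower as well. Of 24 such symbols, 16 of them pseudogenes by name, 9 passed the filter. Each of the 4 liposome comparisons with Uninvolved or Saline called 8 of them lower, beside 28.9%, 26.1%, 24.5% and 21.6% of all genes, and 7 were lower in all 4. Rpl26-ps2 (0.13 to 0.7 FPKM with liposomes) and Rpl12-ps1 passed the filter only through the libraries without liposomes, where they were high. Their calls are not read as results. Rpl26-ps2 is in each of these counts, and Rpl12-ps1 in those of Lipo-CGS. Rpl36al, a copy of Rpl36a, averaged 97.9 FPKM in Uninvolved, 82.0 FPKM in Saline, 40.4 FPKM in Lipo and 49.1 FPKM in Lipo-CGS (log2 fold change -1.23 in Lipo against Uninvolved, limma, adjusted p = 1.65e-04).

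Core members with and without the pyrimidine run at the annotated start were set side by side. Of the tested core members with the run, 18 of 21 were lower in Lipo against Uninvolved, with a median of -1.19. Of those without it, 26 of 31 were, with a median of -1.04. Both counts stand beside 28.9% of all tested genes. Their ranges were -1.60 to -0.03 and -1.53 to -0.24. No test was made between the sets.

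A list of other mRNAs described as TOP mRNAs holds elongation factors and related proteins. At the RefSeq start, 0 of the 12 matched genes of this list had the pyrimidine run, and 41.7% had it within 5 bases. Of the 16 that were tested, 10 were lower and 1 higher in Lipo against Uninvolved, beside 28.9% and 26.5% of all genes, with a median of -0.32. Eef1b2, an exchange factor of elongation, fell by 0.89 (limma, adjusted p = 5.33e-04). Eef1a1, the factor that brings aminoacyl-tRNA to the ribosome, was the gene that rose, by 0.42 (adjusted p = 0.0418), and did not pass the test in the other liposome comparisons (adjusted p = 0.0843 in Lipo-CGS against Uninvolved, 0.188 in Lipo against Saline and 0.332 in Lipo-CGS against Saline). Fau, which encodes the small subunit protein eS30, is listed at 0 in each library.

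Of 24 tested initiation factors, 12 were lower and 2 higher in Lipo against Uninvolved, beside the same 28.9% and 26.5% of all genes, with a median of -0.21. Eif3g, a subunit of the initiation factor that helps load mRNA onto the small subunit, fell by 0.87 (limma, adjusted p = 1.34e-04), and Eif6, which keeps the subunits apart, fell by 0.75 (adjusted p = 1.45e-04). Of 16 tested genes of mTORC1 and the control of TOP mRNAs, 4 were lower and 8 higher in that comparison, with a median of 0.20. Beside the same 28.9% and 26.5% of all genes, the lower share was near that of all genes and the higher share above it. In Lipo-CGS, 4 were lower and 4 higher against Uninvolved (26.1% and 23.6% of all genes), and 3 and 3 against Saline (21.6% and 17.9%). Eif4ebp1, a repressor of cap-dependent initiation that mTORC1 switches off, averaged 224 ± 43.4 FPKM in Uninvolved and 91.5 ± 8.0 FPKM in Lipo (SD, n = 3) and fell by 1.27 (adjusted p = 9.48e-05). Deptor, an inhibitor within mTORC1, averaged 3.38 ± 1.08 and 15.9 ± 5.40 FPKM and rose by 2.06 (adjusted p = 1.52e-04). Eif4ebp1 and Deptor are given because they had the smallest adjusted p of this list in that comparison. Larp1, which binds TOP mRNAs, rose by 0.49 in Lipo against Uninvolved (limma, adjusted p = 0.00537) and had 0.23 and 0.06 in Lipo-CGS against Uninvolved and Saline (adjusted p = 0.132 and 0.712).

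Genes for the ribosome of mitochondria, which share no protein with the cytosolic one, were also lower, in 65 of 71 tested cases in Lipo against Uninvolved, with a median of -0.80. Of all tested genes, 28.9% were lower in that comparison. Of genes with a mean of 10 to 100 FPKM, the cytosolic members left out, 36.4% were. Mrpl42 fell from 46.4 ± 4.51 to 26.4 ± 1.97 FPKM and Mrps25 from 76.1 ± 14.7 to 36.3 ± 2.47 FPKM (SD, n = 3; limma, adjusted p = 1.47e-04 for each). The cytosolic set was thus not alone in being lower, and no test was made of the difference between the sets.

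Marker genes were read to see what else moved with the groups. Of the 10 listed chondrocyte markers, 9 were in the table. Col2a1 was at 4132.48 FPKM or more and Acan at 680.54 FPKM or more in every library, whereas Cnmd was at 0.81 to 13.94 FPKM. The 9 genes summed to 8609 to 10076 FPKM in Uninvolved, 5469 to 10104 in Saline, 9485 to 15161 in Lipo and 11803 to 17174 in Lipo-CGS. In Lipo against Uninvolved, 4 of the 9 were higher and 0 lower, beside 26.5% and 28.9% of all tested genes. The 5 markers of dividing cells summed to 592 to 747 FPKM in Uninvolved, 518 to 593 in Saline, 208 to 381 in Lipo and 175 to 231 in Lipo-CGS. Their sum thus separated the same libraries as the sum of the members did. Of the single genes, Cdk1 and Pcna did so. Mki67, Top2a and Ccnb1 overlapped, with 24.69, 51.15 and 50.32 FPKM in Lipo replicate 1. Of the 5 markers, 3 were lower in Lipo against Uninvolved, beside 28.9% of all tested genes. The 7 fibroblast and synovium markers summed to 350 to 440, 393 to 1432, 1913 to 2455 and 785 to 794 FPKM in the same order of groups. The 6 that were tested were higher in Lipo against Uninvolved, beside 26.5% of all tested genes. Pi16, among the 6, was at 0.59 to 0.85 FPKM without liposomes. It passed the filter only through liposome libraries, where it was high, and its call is not read as a result.

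Leukocyte markers (6 of 7 in the table) summed to 45.0 to 71.2, 45.8 to 50.7, 23.9 to 26.5 and 27.0 to 37.0 FPKM, with Cd3e at 0. In Lipo against Uninvolved, 3 of 4 tested were lower, beside 28.9% of all tested genes. Cd79a, among the 3, was at 0.34 to 0.56 FPKM with liposomes and 1.35 to 4.13 FPKM without. It passed the filter only through the libraries where it was high, and its call is not read as a result. The 4 osteoblast markers summed to 92.2 to 124, 46.6 to 104, 40.7 to 93.5 and 21.4 to 29.4 FPKM. The 1 tested was lower in Lipo against Uninvolved, beside the same 28.9% of all tested genes. Muscle markers lay between 7.64 and 21.1 FPKM in all groups, and endothelial and erythroid markers at 0.17 FPKM or less. The part of these shifts in the ribosomal protein levels was not tested. In libraries of this kind, fewer cells of a type and less RNA per cell cannot be told apart.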

How the data were processed

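RNA-seq of rat knee chondrocytes was used from 12 libraries in 4 groups of 3. Per the study's methods, the authors sequenced single reads of 50 bp on a HiSeq 4000, aligned them to Rnor_6.0 with STAR 2.4.5a, screened them with FastQ Screen 0.5.2, counted them with featureCounts (Subread 1.4.6-p3) and used DESeq2 (Bioconductor 3.3). The submitters' notes name HTSeq. The deposited values are FPKM with 2 decimals, and how they were made from counts is not given in the sources used here. No count test was run.

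Genes at 1 FPKM or more in at least 3 libraries (11373) were fitted on log2(FPKM + 0.5) with limma 3.58.1 (R 4.3.3), with all 4 groups in a single model and a mean-variance trend, after the script was tested on simulated data. Group levels are mean ± SD. Alternatives were other pseudocounts, filters and scalings, fits on the compared groups alone or with a replicate block, and leaving out each library. Members were named by paralogy, level, role, and size or p of the change. The members, lists and rules were chosen with earlier results of these data known. Some genes are not reported here by name.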

Additional observations from a re-analysis of the deposited data

How the results depend on the processing

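Across 21 alternative settings, the counts of lower members stayed within 1.5 times the reported ones. Leaving out a library gave 53 to 64 in Lipo against Uninvolved, 51 to 62 in Lipo-CGS against Uninvolved, 55 to 61 in Lipo against Saline and 50 to 59 in Lipo-CGS against Saline. Lipo-CGS against Lipo gave 0 members throughout, and Saline against Uninvolved 0 to 1. Of 42 named members that were tested, 29 kept their call in Lipo against Uninvolved under each setting in which they passed the filter. The sign turned for Rpl39l without Lipo replicate 2 (-0.13), for Rpl39 under equal totals (0.19) and without Uninvolved replicate 2 (0.12) or Lipo replicate 2 (0.20), and for Rps18 under equal totals (0.18) and without the same libraries (0.15 and 0.27). Leaving out a library gave values from -0.13 to 0.29 for Rpl39l, -0.19 to 0.20 for Rpl39 and -0.26 to 0.27 for Rps18. The causes were not tested. Replicate numbers did not pair the samples: over 18 pairs with the same number, deviations from group means correlated at -0.216 to 0.198, with 2 pairs over 0.1. The fit with a replicate block called 65, 60, 62 and 58 lower members in the 4 comparisons above and 0 in the other two, and Rps10 and Rps25 passed the test in it in Lipo against Uninvolved (adjusted p = 0.0487 and 0.0491). With FPKM of 2 decimals and no counts, members near 0 could not be compared.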
